A study of Mus musculus with 2 samples.

Results

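Cells of the mouse knee synovium that carried the transcripts of Tnmd or Dkk2 were described in 2 single-cell RNA-seq libraries. The synovium is the soft tissue that lines a joint. A cell was a member where it passed a fibroblast gate and held at least 3 unique molecular identifiers (UMIs, each standing for 1 captured transcript) of Tnmd and Dkk2 together. The gate kept barcodes from 1000 UMIs and 500 genes upward whose mitochondrial share did not pass 10%. Col1a1, Col1a2 and Col3a1 together had to give 0.5% of the UMIs or more, and Prg4 less than 1%. At most 1 UMI of Ptprc, Pecam1 and Cdh5 together, fewer than 10 of Spp1 and none of Acan were allowed. The rule gave 1116 members of 10946 cells that passed the UMI, gene and mitochondrial filters, 131 of them in MMS and 985 in control. Both libraries came from wild type mice and each pooled the synovium of 20 knees. MMS is the model's name in the labels, which do not spell it out, and its mice carry the label D14. The other library came from control mice without such a label. Sex, age and strain are not stated in the labels used here.

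Tnmd encodes tenomodulin, a membrane glycoprotein known as a marker of tendon and ligament cells. Dkk2 encodes a secreted member of the dickkopf family, which modulates Wnt signalling at its receptors. Fibroblasts of dense connective tissue, such as tendon sheaths, capsule and fascia, build and maintain collagen bundles, and several of their secreted products bind Wnt proteins or growth factors. Tnmd lies at chrX:133850980-133865577 on the plus strand and Dkk2 at chr3:132085292-132180304 on the plus strand (GRCm38, the assembly that mm10 names).

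There was 1 library per group and no replicate, so no test was possible. Each difference is between these 2 libraries, and each interval in this text is a 95% interval of counting error only. The MMS library held 85597195 UMIs over 5286 barcodes and the control library 84900876 UMIs over 8810 barcodes. Both libraries shared 6 barcodes, none of them a member. The median member had 18233 UMIs and 4265 genes in MMS, and 14555 UMIs and 3789 genes in control. Mitochondrial genes gave a median of 3.01% of a member's UMIs in MMS and 2.96% in control. The labels name goblet cells as the cell type, but 7 of 8 goblet cell markers were at 0 in the members of each library.

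The members made up 21.9% of the gated fibroblasts in MMS (131 of 598, interval 18.7 to 25.4) and 34.8% in control (985 of 2829, interval 33.1 to 36.6). Of all cells that passed the first filters they were 3.38% in MMS and 13.9% in control. Filtered cells with at least 5000 UMIs were also thinned to 5000, and those with fewer were left out. With a threshold of 2 UMIs, members were 2.86% of the thinned cells in MMS and 14.6% in control. The gate kept 598 of 3871 filtered cells in MMS and 2829 of 7075 in control. Its collagen step removed 2275 MMS cells against 3981 control cells, and the Prg4 step 408 MMS cells against 109 control cells. The Spp1 step removed 333 MMS cells against 7 control cells, and the Acan step 195 MMS cells against 18 control cells. Among the cells taken out by the Spp1 and Acan steps, 75 in MMS and 8 in control held 3 or more UMIs of Tnmd and Dkk2. Spp1 encodes osteopontin, a matrix protein of bone that activated cells also secrete, and Acan the large proteoglycan of cartilage. With both steps left out, cells at the threshold were 18.3% of the gated cells in MMS (206 of 1126) and 34.8% in control (993 of 2854).

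The 75 MMS cells left out by Spp1 or Acan differed in their markers from the members. Their Tnmd level was 604 CPM (the gene's UMIs summed over the cells, per 1000000 UMIs of those cells), while Dkk2 was at 33.7 and Penk at 7.05 CPM. The MMS members had 405 CPM of Tnmd, 334 CPM of Dkk2 and 357 CPM of Penk. High Tnmd in MMS also stood outside the gate, in cells with little Dkk2 or Penk.

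In MMS, 430 gated fibroblasts held no UMI of either gene, 21 held 1, 16 held 2, 16 held 3, 11 held 4, 38 held 5 to 9 and 66 held 10 or more, up to 73. In control the same bins held 1355, 300, 189, 122, 104, 349 and 410 cells, with a highest value of 71. The share of gated fibroblasts with neither gene was 71.9% in MMS and 47.9% in control. Marker levels were higher just inside the threshold than just outside it. Ogn was at 1113 CPM in MMS cells with 3 or 4 UMIs and 543 CPM in those with 1 or 2, and at 1658 CPM against 1224 CPM for the same bins in control. Cells with 10 or more UMIs had 1488 CPM of Ogn in MMS and 2261 CPM in control. Penk was at 237 CPM in MMS cells with 3 or 4 UMIs, 87.4 CPM in those with 1 or 2 and 442 CPM in those with 10 or more, and in the same bins of control at 339, 257 and 498 CPM. Ptn was at 104, 35.3 and 183 CPM in these bins of MMS and at 80.1, 53.7 and 179.7 CPM in those of control. As a ratio, the step from 1 or 2 to 3 or 4 UMIs was the larger one for all 3 genes in MMS. In control it was the smaller one for all 3. These 2 bins held 37 and 27 cells in MMS, with 21 and 43 UMIs of Ptn. Tnmd and Dkk2 chose the bins, so the levels are given as a description.

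**Figure D1:**
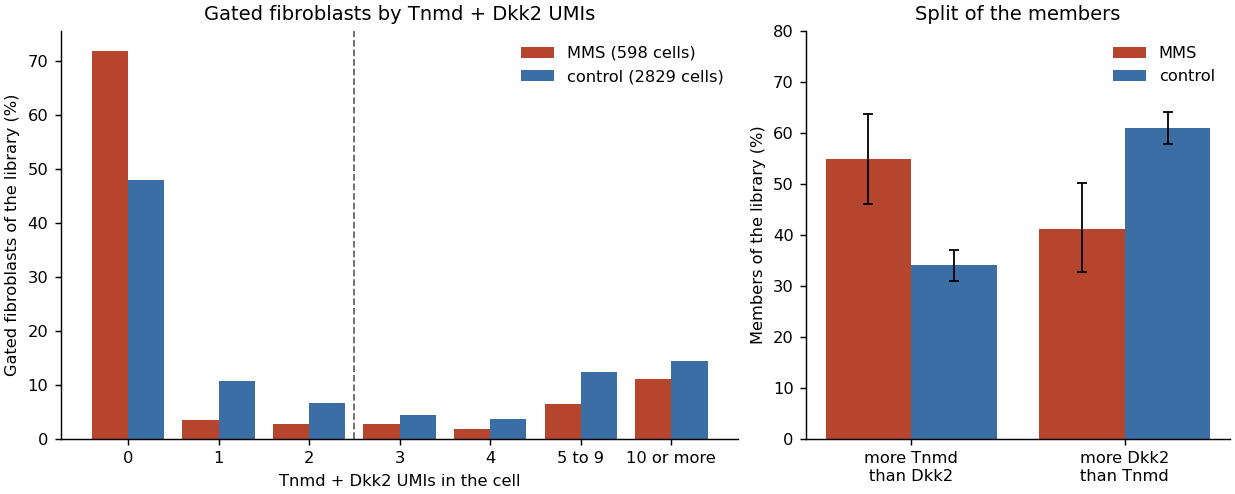
Left, the share of each library's gated fibroblasts (vertical axis, percent) by the number of Tnmd and Dkk2 UMIs in the cell, with the threshold as a dashed line; right, the share of members with more Tnmd or more Dkk2, with exact 95% intervals. MMS has the higher bar at 0 UMIs (71.9% against 47.9%) and the higher share of members with more Tnmd (55.0% against 34%).

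The members leaned to Tnmd in MMS and to Dkk2 in control. More Tnmd than Dkk2 UMIs (the Tnmd side) were found in 55.0% of MMS members (72 cells, interval 46.0 to 63.7) and 34% of control members (335 cells, interval 31.1 to 37.1). More Dkk2 than Tnmd UMIs (the Dkk2 side) were found in 41.2% of MMS members (54 cells) and 61.0% of control members (601 cells). The remaining 5 MMS and 49 control members held as many of both. Summed over members, Tnmd was at 405 CPM in MMS and 267 CPM in control, and Dkk2 at 334 CPM in MMS and 439 CPM in control. These values chose the cells and are given as a description.

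Both transcripts often lay in the same cell. UMIs of both genes were found in 51.9% of MMS members and 54.2% of control members, Tnmd alone in 20.6% and 10.3%, and Dkk2 alone in 27.5% and 35.5%. Over all gated fibroblasts, whatever their sum, Dkk2 was detected in 61.2% of the MMS cells with Tnmd (71 of 116) and in 10.8% of the MMS cells without it (52 of 482). In control it was detected in 74.2% of the cells with Tnmd (556 of 749) and in 34.9% of those without (725 of 2080). Deeper cells show more of every gene, and the part of depth in this co-detection was not tested.

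Ogn and Penk were higher in the members of both libraries than in the other gated fibroblasts, and Ptn in those of control. Ogn encodes osteoglycin, a small leucine-rich proteoglycan of connective tissue. Its level was 1291 CPM in MMS members and 1994 CPM in control members, against 261 CPM in MMS and 804 CPM in control for the other gated fibroblasts, meaning those with no UMI of Tnmd or Dkk2 (430 MMS and 1355 control cells). A UMI of Ogn was present in 100.0% of MMS and 99.2% of control members. Penk encodes the precursor of the enkephalin opioid peptides. It stood at 357 CPM in MMS members and 454 CPM in control members, against 26.2 CPM in the other gated fibroblasts of MMS and 144 CPM in those of control. Ptn encodes pleiotrophin, a heparin-binding growth factor. Ptn was at 143 CPM in MMS members against 121 CPM in the other gated fibroblasts of MMS, and at 127 CPM in control members against 20.3 CPM in those of control. One of the other gated MMS cells held 184 of their 984 Ptn UMIs. Ptn was detected in 39.7% of MMS members against 24.9% of the other gated fibroblasts of MMS, and in 23.2% of control members against 8.63% of those of control. By summed UMIs Ptn was thus nearly level between members and other gated fibroblasts in MMS, while it was detected in more of the members.

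Endothelial barcodes were taken as a gauge of free RNA in the droplets. Single ones held up to 156 UMIs of Penk and 77 of Ptn in MMS, and up to 38 and 14 in control. Whether these transcripts were free RNA was not tested. After thinning to 5000 UMIs, Penk was detected in 61.1% of MMS members and 66.5% of control members, and in 1.18% of MMS and 1.84% of control endothelial barcodes. For Ptn the thinned shares were 25.4% of MMS and 16.4% of control members, 15.6% of MMS and 4.27% of control cells among the other gated fibroblasts, and 5.08% of MMS and 1.38% of control endothelial barcodes. The median endothelial barcode had 8403 UMIs in MMS and 3906 in control. Only those with at least 5000 UMIs entered the thinned shares, 591 of 806 in MMS and 653 of 1971 in control.

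**Figure D2:**
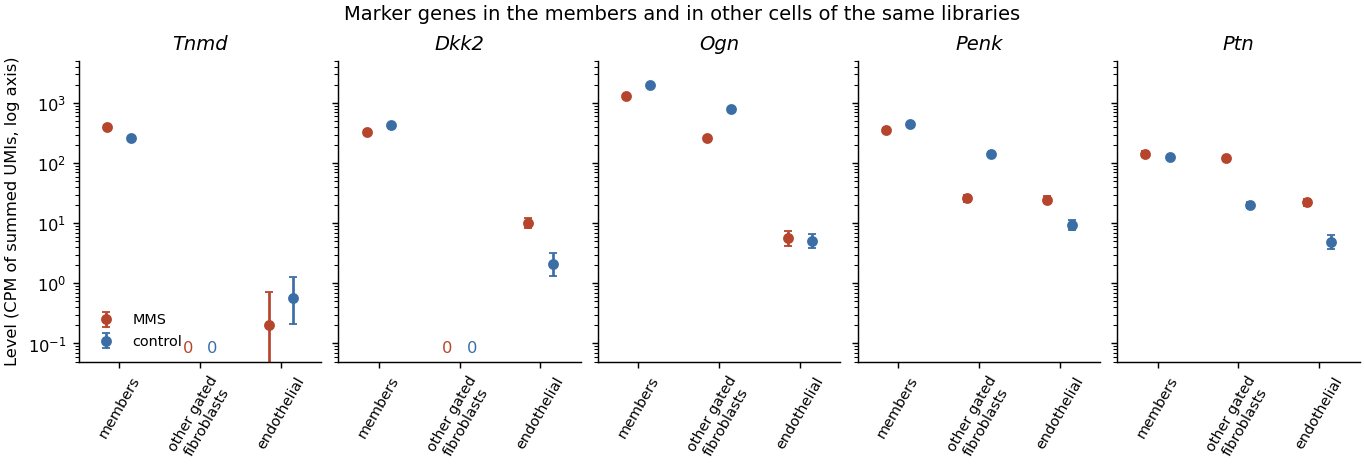
Level of the 5 marker genes (CPM of summed UMIs, log axis) in the members, in the other gated fibroblasts and in endothelial barcodes, with exact 95% counting intervals; Tnmd and Dkk2 are at 0 in the other gated fibroblasts by construction. Ogn and Penk lie highest in the members of both libraries, while Ptn is at 143 CPM in members and 121 CPM in the other gated fibroblasts of MMS.

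Several of the genes that accompanied Tnmd and Dkk2 encode secreted proteins, among them Myoc, Apod, Sfrp1, Sfrp2 and Igfbp3. Of 13051 genes with at least 10 UMIs, 795 (6.09%) were at least 2-fold higher and 1168 (8.95%) at least 2-fold lower in MMS members than in the other gated fibroblasts of MMS. In control, 501 of 14332 (3.50%) were at least 2-fold higher and 773 (5.39%) at least 2-fold lower in the members. The genes named next had the most extreme ratios that held in both libraries. The cells were chosen by 2 of their genes, so these ratios describe what went with the choice.

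Myoc, which encodes the secreted glycoprotein myocilin, was at 781 CPM in MMS members against 29.9 CPM in the other gated fibroblasts of MMS (log2 ratio 4.70, interval 4.51 to 4.90). In control it was at 1741 CPM in members against 531 CPM (log2 ratio 1.71, interval 1.68 to 1.75). Apod, the lipid-binding apolipoprotein D, was at 3988 CPM in MMS members against 657 CPM, and at 1498 CPM in control members against 508 CPM. It was detected in 99.2% of MMS and 97.6% of control members.

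Secreted inhibitors of Wnt signalling were among these genes. Sfrp2 was at 618 CPM in MMS members against 120.5 CPM in the other gated fibroblasts of MMS, and at 280.2 CPM in control members against 70.9 CPM in those of control. Sfrp1 was at 418 CPM in MMS members against 84.3 CPM, and at 207 CPM in control members against 69.0 CPM. Sfrp4 went the other way, with log2 ratios of -0.57 in MMS and -0.84 in control. Dkk2 itself belongs to a family that modulates Wnt signalling, and its level was used for the choice of cells.

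By the smaller ratio of the 2 libraries, Igfbp3 and Angpt4 came first. Igfbp3, a binding protein of insulin-like growth factors, was at 52.5 CPM in MMS members against 8.38 CPM, and at 89.0 CPM in control members against 12.9 CPM. A single MMS cell gave 46.6% of its UMIs in MMS members. Angpt4, a ligand of the endothelial receptor Tie2, was at 46.6 CPM in MMS members against 3.08 CPM, and at 40.4 CPM in control members against 7.77 CPM. Cnr1, a cannabinoid receptor, had log2 ratios of 2.73 in MMS and 2.0 in control. Lcn2, a lipocalin that binds bacterial siderophores, was at 441 CPM in MMS members against 60.3 CPM, and at 111 CPM in control members against 33.1 CPM. Ecrg4, which encodes a secreted peptide precursor, the tight junction gene Cldn10 and the carboxypeptidase family gene Cpxm2 had log2 ratios of 1.97, 2.18 and 1.68 in MMS and of 1.93, 1.53 and 1.47 in control.

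Lower in the members of both libraries were the water channel Aqp1, at 87.3 CPM in MMS members against 579 CPM and at 34.3 CPM in control members against 260 CPM. The matrilin gene Matn2 was at 29.6 CPM in MMS members against 197 CPM, and at 5.59 CPM in control members against 28.6 CPM. The tropomyosin Tpm2 and the prohormone-processing enzyme Cpe had log2 ratios of -3.53 and -3.54 in MMS and of -2.23 and -2.20 in control. Fmo2, Olfml2a, Sema3e and Sbsn lay between -2.44 and -2.13 in MMS and between -2.51 and -2.22 in control. The cells set against the members were not alike in the 2 libraries. The 9 markers of mural cells (pericytes and vascular smooth muscle) summed to 787 CPM in the other gated fibroblasts of MMS and 117 CPM in those of control, against 58.8 CPM in MMS members and 76.6 CPM in control members. Their part in the ratios was not tested.

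**Figure D3:**
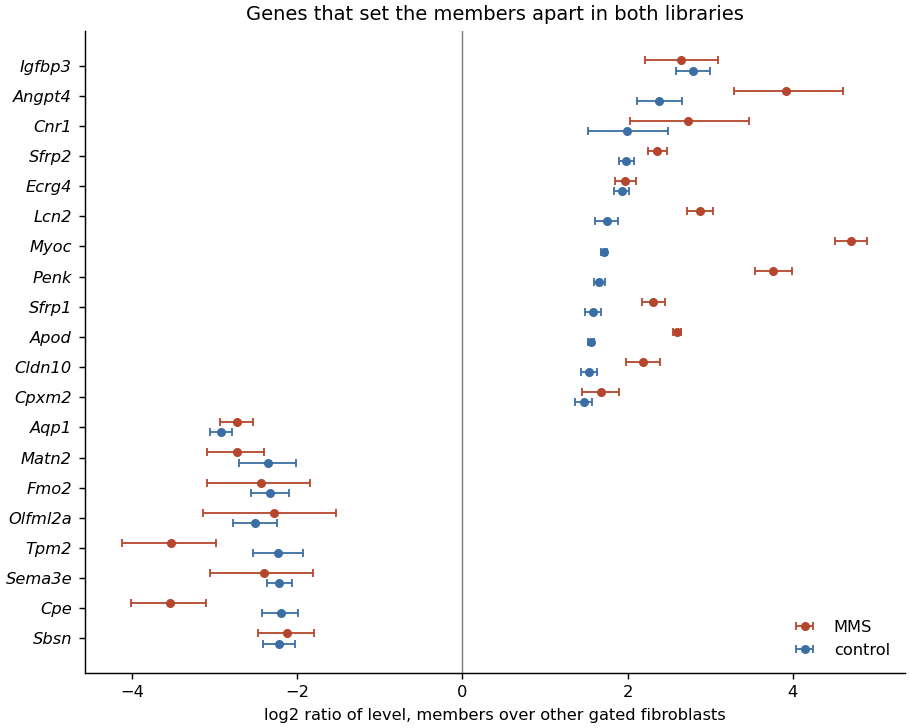
Log2 ratio of level (horizontal axis), members over the other gated fibroblasts, for the 12 highest and 8 lowest genes by the smaller ratio of the 2 libraries, with exact 95% counting intervals. Every gene has the same sign in both libraries, and Myoc has the widest gap between them, at 4.70 in MMS and 1.71 in control.

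Within the members, cells on the Tnmd side and on the Dkk2 side differed in genes of adventitial fibroblasts, which were lower on the Tnmd side. Of 10542 genes in MMS, 5.26% were at least 2-fold higher and 4.53% at least 2-fold lower on the Tnmd side. Of 12984 genes in control, 2.70% were at least 2-fold higher and 3.15% at least 2-fold lower. Pi16, a peptidase inhibitor that marks adventitial fibroblasts in many tissues, was at 239 CPM on the Tnmd side against 1450.2 CPM on the Dkk2 side in MMS. In control it was at 117 CPM on the Tnmd side against 542 CPM on the Dkk2 side. It was detected in 12.5% of Tnmd-side against 50% of Dkk2-side cells in MMS, and in 12.8% against 30.1% in control. The whole adventitial list leaned the same way. None of 11 genes tested was higher on the Tnmd side in MMS (median log2 ratio -0.93) and none of 12 in control (median -0.71), where the medians of all genes were -0.03 and -0.02. Set against the other gated fibroblasts, the members had 10 of 12 adventitial genes higher in MMS (median 0.51) and 1 of 12 in control (median -0.68). Of all genes in that comparison, 37.4% were higher in MMS members (median -0.14) and 39.4% in control members (median -0.06).

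Other genes of the Dkk2 side included the Wnt modulator gene Sfrp4 and the matrix genes Fn1 and Efemp1. Sfrp4 was at 162 CPM on the Tnmd side against 1444 CPM on the Dkk2 side in MMS, and at 145 CPM against 500.3 CPM in control. Fn1, which encodes fibronectin, was at 1751 CPM on the Tnmd side against 4384 CPM on the Dkk2 side in MMS, and at 1931 CPM against 3772 CPM in control. The fibulin gene Efemp1 was at 79.9 CPM on the Tnmd side against 248 CPM on the Dkk2 side in MMS, and at 41.5 CPM against 93.2 CPM in control. Nsg1, Tmem100, Vgll3 and the plasminogen activator gene Plat had log2 ratios between -1.75 and -1.01 in MMS and between -1.63 and -0.92 in control.

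Genes named for the Tnmd side included growth factors and vascular ligands. Angpt4 was at 62.5 CPM on the Tnmd side against 23.6 CPM on the Dkk2 side in MMS, and at 59.4 CPM against 28.5 CPM in control. Mdk, the heparin-binding growth factor midkine, was at 136 CPM on the Tnmd side against 64.8 CPM on the Dkk2 side in MMS, and at 21.7 CPM against 10.7 CPM in control. Hbegf, a ligand of the EGF receptor, had log2 ratios of 2.23 in MMS and 1.01 in control. Uts2r, Clu and Col12a1 lay between 0.95 and 1.39 in MMS and between 0.86 and 0.96 in control. The imprinted RNA H19 had 0.96 in MMS and 1.33 in control, but its MMS ratio was -0.014 with a threshold of 3 UMIs per 10000. With cells thinned to 5000 UMIs in 3 random draws, the MMS ratios of H19, Uts2r, Clu, Mdk, Col12a1 and, on the Dkk2 side, Plat changed sign in at least 1 draw. Those of Angpt4 and Hbegf kept their sign in MMS, as did the control ratios of the genes named here for either side.

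Penk was higher on the Tnmd side of MMS, at 488 CPM against 184 CPM on the Dkk2 side, and less apart in control, at 513 CPM against 404 CPM. Ptn was at 118 CPM on the Tnmd side against 155 CPM on the Dkk2 side in MMS, and at 179 CPM against 97.5 CPM in control. Tendon and ligament genes were mostly higher on the Tnmd side, 12 of 13 in MMS (median log2 ratio 0.39) and 11 of 13 in control (median 1.05). Of all genes, 47.3% were higher on the Tnmd side in MMS and 46.2% in control. In MMS the collagen-binding proteoglycan Fmod had a log2 ratio of 0.24, the tendon transcription factor Scx 0.41 and the cartilage intermediate layer gene Cilp2 1.57. In control the same genes had 5.50, 2.58 and 2.38. Fmod was found in 21 MMS and 14 control members, and 1 cell gave 36.9% of its UMIs in MMS members and 35% in control members. Tnc, which encodes tenascin-C, had -1.85 in MMS and 2.93 in control. It was found in 11 MMS and 7 control members, and 1 cell gave 41.4% of its UMIs in MMS members and 38.5% in control members. Whether the sides differ between the libraries was not tested.

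**Figure D4:**
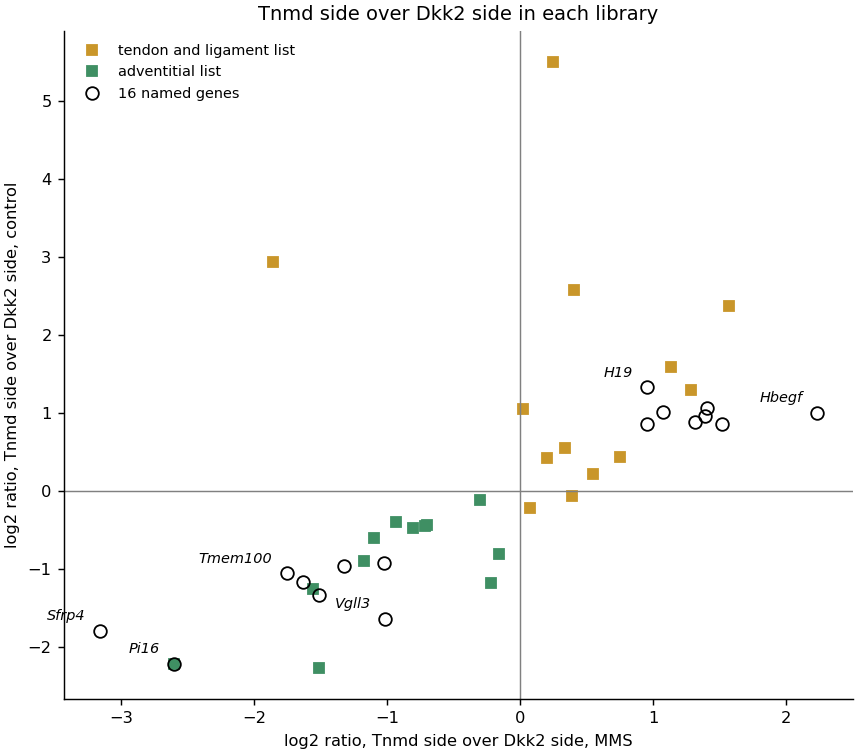
Log2 ratio of level, Tnmd side over Dkk2 side, in MMS (horizontal axis) and in control (vertical axis), for the 16 genes chosen by size (circles) and for the genes of the tendon and adventitial lists with UMIs on both sides of both libraries (squares). The adventitial genes lie below 0 in both libraries, and the tendon genes spread further in control (Fmod at 5.50) than in MMS (0.24).

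Between the libraries, members of MMS had higher levels of several elastic fibre genes, of the crosslinking enzyme gene Lox and of the growth factor genes Mdk and Igf2. Of 13365 genes with at least 10 UMIs over both libraries, 1064 (7.96%) were at least 2-fold higher and 643 (4.81%) at least 2-fold lower in MMS members. Of all these genes 55.2% were higher in MMS members, and their median log2 ratio was 0.06. Named are the 12 highest and 12 lowest genes with at least 50 UMIs and detection in at least 10% of members of the higher library.

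Eln, at chr5:134702593-134747323 on the minus strand, encodes elastin, the core of elastic fibres. It was at 475 CPM in MMS members and 47.2 CPM in control members (log2 ratio 3.33, interval 3.20 to 3.47), and detected in 58.8% of MMS and 26.9% of control members. After thinning the shares were 38.9% in MMS and 14.4% in control. Its log2 ratio was 4.27 on the Tnmd side and 2.62 on the Dkk2 side. Of all genes, 7.96% were at least 2-fold higher and 5.69% at least 2-fold lower in MMS on the Tnmd side, and 8.46% and 5.30% on the Dkk2 side. Mfap4, a microfibril-associated protein, was at 185 CPM in MMS members and 19.6 CPM in control members (log2 ratio 3.24, interval 3.03 to 3.45). Lox, the lysyl oxidase that crosslinks collagen and elastin, was at 589 CPM in MMS members and 76.8 CPM in control members (log2 ratio 2.94, interval 2.83 to 3.05). It was detected in 92.4% of MMS and 38.7% of control members.

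Col6a5, a chain of collagen VI, was at 207 CPM in MMS members and 14.9 CPM in control members (log2 ratio 3.79, interval 3.57 to 4.03). Hsd11b2, the enzyme that inactivates glucocorticoids, was at 89.2 CPM in MMS members and 7.99 CPM in control members (log2 ratio 3.48, interval 3.16 to 3.81). Adam12, a membrane metalloproteinase, was at 26.5 CPM in MMS members and 2.26 CPM in control members (log2 ratio 3.55, interval 2.93 to 4.19). Kng2, a kininogen gene, was at 24.5 CPM in MMS members and 0.80 CPM in control members, from 62 against 12 UMIs. It has a close copy in the mouse genome, Kng1, and reads may have been split between them.

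Growth factor genes were among the highest ratios. Mdk was at 104 CPM in MMS members and 14.5 CPM in control members (log2 ratio 2.84, interval 2.58 to 3.11), and detected in 57.3% of MMS and 14.4% of control members. Igf2, an insulin-like growth factor, was at 37.1 CPM in MMS members and 4.93 CPM in control members (log2 ratio 2.91, interval 2.46 to 3.37). Srgn, the proteoglycan serglycin of secretory granules, was at 496 CPM in MMS members and 72.4 CPM in control members (log2 ratio 2.77, interval 2.66 to 2.89). The transcription cofactor Lbh and the sorting receptor Sorcs2 had log2 ratios of 2.92 and 2.78. For Igf2, 1 cell gave 17% of the MMS UMIs, and for the other 11 of these genes the top cell gave less.

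The 12 higher genes were also higher in the other gated fibroblasts of MMS, where 61.3% of genes were higher, 11.0% at least 2-fold higher and 6.85% at least 2-fold lower. Mdk, Lbh and Sorcs2 had larger log2 ratios there than in members, at 3.18, 3.59 and 3.35, and Lox was level with its ratio in members, at 2.92. Kng2 had 3.82 there, Adam12 2.74 and Mfap4 2.47. Srgn, Col6a5 and Eln had 1.80, 1.70 and 1.38, and Hsd11b2 and Igf2 had 0.91 and 0.82. The difference between the cell groups was not tested.

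The 12 genes named as lower in MMS members had few UMIs there. Sult1e1, the oestrogen sulfotransferase, had 3 UMIs over all MMS members and 880 over all control members, or 1.18 and 58.6 CPM (log2 ratio -5.63, interval -7.91 to -4.08). It was detected in 2.29% of MMS and 15.0% of control members. Stmn4, a stathmin family gene, had 5 UMIs in MMS and 675 in control (log2 ratio -4.51, interval -6.14 to -3.28), with 4 of the 5 in 1 cell. Fbxo2, an F-box protein of ubiquitin ligases, had 6 UMIs in MMS and 458 in control (log2 ratio -3.69, interval -5.14 to -2.55). Lgi1, which encodes a secreted leucine-rich protein, had 5 UMIs in MMS and 372 in control (log2 ratio -3.65, interval -5.28 to -2.41). Adcy1, Pgf, Tmem132c, Tpd52l1, Rbfox3, Cdh4, Stk32a and Frzb had between 2 and 6 UMIs in MMS and between 140 and 304 in control. Their log2 ratios lay between -4.05 and -2.56, with counting intervals that reach from -7.10 to -1.17.

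These 12 genes were lower in the other gated fibroblasts as well. Sult1e1 had a log2 ratio of -7.80 there, Cdh4 of -6.26 and Stmn4 of -4.68. Adcy1 and Fbxo2 were closer to no difference there, at -1.20 and -1.03.

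Of the matrix lists, the elastic fibre list had 14 of 17 genes higher in MMS members, with a median log2 ratio of 0.75. Of these genes, 7 were at least 2-fold higher and 1 at least 2-fold lower, where 7.96% and 4.81% of all genes were. In the other gated fibroblasts 10 of 17 were higher (median 0.61), a share near the 61.3% of all genes there. Mfap2, which encodes a microfibril glycoprotein, was at 395 CPM in MMS members and 86.8 CPM in control members. Efemp1 was at 156 CPM in MMS members and 75.3 CPM in control members (log2 ratio 1.05), while its ratio was -1.37 in the other gated fibroblasts. Fbn1, the main microfibril gene, had a log2 ratio of 0.31. Fbln1 and Ltbp4 were lower, at -0.97 and -1.03.

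Collagen genes were higher unevenly. In the list of fibrillar and associated collagens, 10 of 14 genes were higher in MMS members (median log2 ratio 0.95), against 14 of 15 in the other gated fibroblasts (median 0.99). Col14a1, which binds collagen fibrils, was at 1727 CPM in MMS members and 799.9 CPM in control members (log2 ratio 1.11), and its ratio was 0.32 in the other gated fibroblasts. Col12a1, of the same class, was at 62.8 CPM in MMS members and 10.9 CPM in control members (log2 ratio 2.52). Col8a1 had a log2 ratio of 2.84, with 38.8% of its MMS UMIs in 1 cell. The collagen VI chains Col6a1 and Col6a2 did not share the difference of Col6a5, at -0.15 and -0.16. Among 21 genes of collagen processing and crosslinking, the list that holds Lox, 12 were higher (median 0.09), and 2 were at least 2-fold higher, shares near the 55.2% and 7.96% of all genes.

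Most genes of activated fibroblasts were higher in MMS members, 17 of 21 with a median log2 ratio of 1.03. In the other gated fibroblasts 19 of 21 were higher, with a median of 1.95. The shares of all genes were 55.2% in members and 61.3% in the other gated fibroblasts. Postn, the matricellular protein periostin, was at 1732 CPM in MMS members and 447 CPM in control members. Cthrc1, a secreted collagen triple helix protein, was at 269 CPM in MMS members and 59.5 CPM in control members. Ccn2, the matricellular connective tissue growth factor, was at 194 CPM in MMS members and 29.9 CPM in control members, with 32.5% of its MMS UMIs in 1 cell. The contractile genes of this list differed in their ratios. Acta2, smooth muscle actin, was at 9.48 CPM in MMS members and 7.32 CPM in control members, and Tagln at 1.97 and 2.73 CPM, while in the other gated fibroblasts their log2 ratios were 3.14 and 3.29. Those cells also held 787 CPM of mural markers in MMS and 117 CPM in control, whose part was not tested. Myl9, a myosin light chain, was at 13.4 CPM in MMS members and 5.13 CPM in control members. Tpm1, a tropomyosin, was at 74.2 CPM in MMS members and 37.4 CPM in control members, and detected in 61.8% of MMS and 39.9% of control members.

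The tendon and ligament list had 10 of 13 genes higher in MMS members (median log2 ratio 0.94), where 55.2% of all genes were higher. Cilp, a cartilage intermediate layer protein, was at 846 CPM in MMS members and 221 CPM in control members. Tnc was at 43.8 CPM in MMS members and 1.73 CPM in control members, and Fmod at 93.2 CPM in MMS and 17.3 CPM in control, with 36.9% of its MMS UMIs in 1 cell. Comp, the abundant cartilage oligomeric matrix protein, differed little, at 2500.0 CPM in MMS members and 2831 CPM in control members (log2 ratio -0.18). Among the matrix proteases and their inhibitors, 14 of 18 genes were higher (median log2 ratio 0.75), against the same 55.2% of all genes. Mmp13, a collagenase, had 75 UMIs in MMS members, all in 5 cells, and 0 in control members. At a floor of 3 counts over the control members, its level was at least 148-fold higher in MMS, and 1 cell gave 50.7% of the UMIs.

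Small leucine-rich proteoglycans were mixed, with 5 of 13 genes higher in MMS members (median log2 ratio -0.23), where 55.2% of all genes were. Lum, which encodes lumican, was at 2245 CPM in MMS members and 808 CPM in control members. Dcn, decorin, was at 17887 CPM in MMS members and 24002 CPM in control members, and Ogn had a log2 ratio of -0.63. Omd, osteomodulin, had -0.23 in members and -2.21 in the other gated fibroblasts.

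In the list of Wnt inhibitors, with Dkk2 left aside, 5 of 7 genes were higher in MMS members (median log2 ratio 1.03). Sfrp1, Sfrp2 and Sfrp4 had log2 ratios of 1.02, 1.14 and 1.03, while Frzb was lower (-2.56). Among Wnt ligands, receptors and targets 13 of 22 were higher (median 0.26), a share near the 55.2% of all genes. Single genes stood apart, such as the matricellular target gene Ccn4 (3.08) and the receptor gene Fzd1 (2.07). Axin2, a target that many Wnt signals induce, had a log2 ratio of -0.14 with an interval of -0.86 to 0.51.

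IGF genes differed in direction, with 8 of 13 higher (median 0.32), where 55.2% of all genes were higher. Igfbp4 was at 1900 CPM in MMS members and 696 CPM in control members, and Igfbp6 at 454 CPM in MMS members and 2291 CPM in control members (log2 ratio -2.34, interval -2.42 to -2.25). Pappa, the protease that cleaves Igfbp4, was at 34.7 CPM in MMS members and 11.2 CPM in control members (log2 ratio 1.64), against -0.49 in the other gated fibroblasts. Of the TGF-beta and BMP genes 13 of 26 were higher (median -0.02). The BMP target genes Id1 and Id3 were lower in MMS members, at 13.0 against 60.8 CPM and at 479 against 1043 CPM, with log2 ratios of -2.22 and -1.12. In the other gated fibroblasts these ratios were -0.40 and -0.17.

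**Figure D5:**
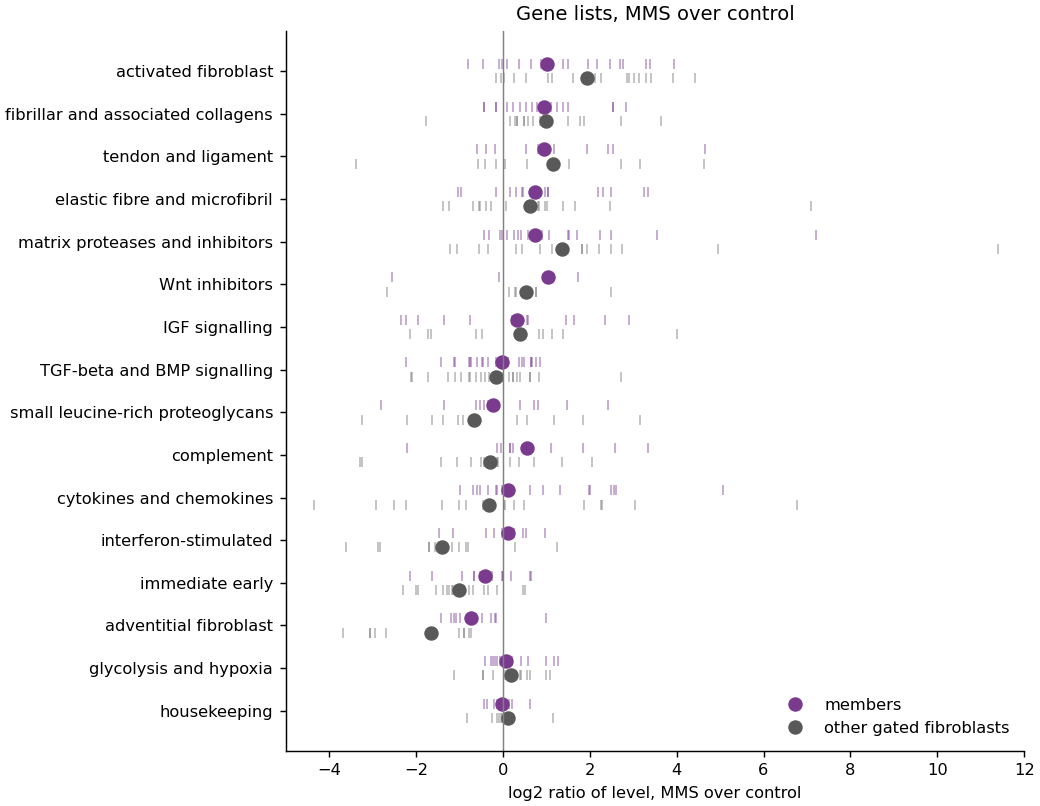
Log2 ratio of level, MMS over control (horizontal axis), for 16 gene lists: each tick is a gene that was tested in members, and each dot is the median over the genes tested in members (purple) or in the other gated fibroblasts (grey). The medians of the activated, collagen, tendon, elastic and protease lists are above 0 in both, while the complement median is 0.55 in members and -0.29 in the other gated fibroblasts.

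Complement genes differed in direction between the members and the other gated fibroblasts. In members 11 of 14 complement genes were higher in MMS (median log2 ratio 0.55), and in the other gated fibroblasts 5 of 14 (median -0.29). Of all genes, 55.2% were higher in MMS in members and 61.3% in the other gated fibroblasts. C3, the central component, was at 6398 CPM in MMS members and 4218 CPM in control members (log2 ratio 0.60), and its ratio was -1.05 in the other gated fibroblasts. C1ra and C1s1, proteases of the classical pathway, had 0.63 and 0.66 in members. C7 was lower in members, at 23.7 CPM in MMS and 110 CPM in control. Cfd had a log2 ratio of 2.59, but 1 MMS cell gave 59.9% of its UMIs. These differences between cell groups were not tested.

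Chemokine genes of fibroblasts stood out by level. Cxcl14 was at 4134 CPM in MMS members and 1032 CPM in control members (log2 ratio 2.0, interval 1.97 to 2.04), against a ratio of 0.03 in the other gated fibroblasts. Cxcl12, a ligand of the receptor Cxcr4, was at 3588 CPM in MMS members and 1443 CPM in control members (log2 ratio 1.31), against 0.48. Ccl8 was at 95.5 CPM in MMS members and 15.8 CPM in control members. The list of cytokines and chemokines as a whole was even, with 11 of 20 genes higher (median 0.11). Il6 was at 34 CPM in MMS members and 51.2 CPM in control members.

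Interferon-stimulated, immediate early and adventitial genes had medians nearer to 0 in the members than in the other gated fibroblasts; the difference between the cell groups was not tested. Of 13 interferon-stimulated genes 8 were higher in MMS members (median 0.12) and 2 in the other gated fibroblasts (median -1.40). The shares of all genes higher were 55.2% and 61.3%. Ifi27l2a was lower in both, at -1.46 in members and -2.88 in the other cells. Of 20 immediate early genes 4 were higher in MMS members (median -0.41) and 2 in the other gated fibroblasts (median -1.01). Klf2, a transcription factor that flow and growth factors induce, was at 248 CPM in MMS members and 767 CPM in control members. Of 12 adventitial genes 1 was higher in MMS members (median -0.74) and none in the other gated fibroblasts (median -1.66). That gene was Pi16, at 780 CPM in MMS members and 394 CPM in control members, with 18.8% of its MMS UMIs in 1 cell. Dpp4, which marks the same cells, was at 20.9 CPM in MMS members and 45.5 CPM in control members. Cell cycle genes were sparse, with 1 of 15 higher in MMS members (median -1.37, and 0.020, -0.040 and 0.017 in the 3 draws thinned to 5000 UMIs) and 14 of 15 in the other gated fibroblasts (median 2.34). Top2a and Cdk1 were each found in 6 control members, where 1 cell gave 53.2% and 48.4% of their UMIs, against 3.39% for Pcna. The housekeeping list had a median of -0.02 in members and 0.13 in the other gated fibroblasts.

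Ntrk2, a neurotrophin receptor, was at 273 CPM in MMS members and 195 CPM in control members, with log2 ratios of 0.48 in members and -1.36 in the other gated fibroblasts. Fst, the activin antagonist follistatin, had 0.09 in members and -1.73 in the other cells. Ptgs2, the inducible prostaglandin synthase, had -0.98 in members and -4.35 in the other cells, and Penk -0.35 and -2.46.

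Macrophage markers were low in the median member, while markers of other cell types are given as sums. The 10 macrophage markers summed to 297 CPM in MMS members and 184 CPM in control members, yet the median member held 0.00 per 10000 UMIs in MMS and 0.54 in control. A single MMS member gave 89.3% of the macrophage marker UMIs, and another gave 48.8% of the adipocyte marker UMIs. Adipocyte markers summed to 992 CPM in MMS members and 211 CPM in control members. Among them, Fabp4 was detected in 36.6% of MMS and 51.8% of control members. Without the 3 MMS and 54 control members that held 10 or more UMIs of either list, the adipocyte median was -0.93 where it was 2.71 with them, and the macrophage median was -0.85 where it was 0.65. The endothelial markers summed to 33.2 CPM in MMS members and 40.7 CPM in control members, with Flt1 and Cldn5 at 0 in MMS. The 8 neutrophil markers summed to 53.3 CPM in MMS members and 1.27 CPM in control members. Transcripts of S100a8 and S100a9 were at 19.7 and 26.1 CPM in MMS members and 0.33 and 0.27 CPM in control members, with log2 ratios of 5.91 and 6.13 in the other gated fibroblasts. Ngp had 9 UMIs in MMS members and 0 in control members, Retnlg 5 and 0, and Camp 5 and 5, while Csf3r, Cxcr2 and Ly6g were at 0 in MMS members. Haemoglobin genes summed to 160.3 CPM in MMS members and 493 CPM in control members. For Hbb-bs, 1 cell gave 88.3% of the UMIs in MMS members and 43.8% in control members. Hbb-bs was detected in 19.1% of MMS and 5.79% of control members. The part of such transcripts in the gene ratios was not tested.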

How the data were processed

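Knee synovium had been digested with Liberase and DNase and loaded on a 10x Genomics 3' v3.1 system, per the labels' protocols. The deposited matrices hold counts, whole UMIs per gene and barcode that were not normalized; the authors' counting used Cell Ranger 5.0.0 per the file headers and 2.0.0 with mm10 per the submitters' processing notes. The rest was computed from these counts with numpy 2.4.6, scipy 1.17.1, pandas 2.3.3 and, for doublets, scrublet in scanpy 1.11.5.

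UMIs were summed over the cells of each group and library and divided by their total (CPM). Ratios have exact conditional binomial intervals and shares exact Clopper-Pearson intervals, both at 95%. Where a group had no UMI of a gene, 3 counts were used, so that such a ratio is only a bound. Genes needed 10 UMIs over both groups. The calculation was tested on simulated counts. Doublets were kept by the rule; scrublet called 1 of the 131 MMS and 6 of the 985 control members.

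Genes named by size had at least 50 UMIs and detection in at least 10% of the higher cells, and, between libraries, a level of at least 0.5 times that over all filtered cells. Not eligible were Tnmd, Dkk2, the genes of the gate, sex-linked genes, gene models without a name, and mitochondrial, ribosomal and haemoglobin genes. Of the genes so chosen between the sides, 1 is not reported here. Other genes are examples from the 36 lists, chosen after their values were seen. The members and lists were chosen with earlier results of these data known. Coordinates are from GENCODE M21. Alternatives to the filters, threshold, depth, weighting and minimum counts were computed. Cells were thinned in 3 random draws, of which the last 2 were added after the data were seen; thinned values are from the first draw unless all are given.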

Additional observations from a re-analysis of the deposited data

Results flagged for a closer look

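The macrophage marker list went in opposite directions on the 2 sides of the members. Its median log2 ratio, MMS over control, was 1.28 on the Tnmd side (8 of 9 genes higher) and -2.11 on the Dkk2 side (1 of 9 genes higher). The difference between the sides was not tested. One Tnmd-side cell of MMS held 671 macrophage marker UMIs, which were 89.3% of all those in MMS members.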

How the results depend on the processing

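The share of members was lower in MMS than in control under every alternative computed. The difference in the share of all filtered cells was -10.5 percentage points, and it was -11.9 with a mitochondrial limit of 5%, -12.8 with a threshold of 2 UMIs, -8.04 with 5 UMIs and -8.85 with 3 UMIs per 10000. It was -11.7, -11.6 and -11.9 in 3 random draws of thinning to 5000 UMIs, which left out the filtered cells with fewer UMIs. The difference in the share of gated fibroblasts was -12.9 points and became -16.9 with a threshold of 2 UMIs. With a minimum of 50 UMIs per gene, 10860 genes were tested in place of 13365. Of the 10860, 509 were at least 2-fold higher and 333 at least 2-fold lower, against 1064 and 643 without that minimum. Both counts fell by a larger part than the number of genes tested. The draws after the first were added after seeing that single draws gave different reversals. The cell cycle list, at -1.37, had medians of 0.020 in the first draw and 0.017 in the third draw. The adipocyte markers had -1.62 in the second draw, -1.97 in the third draw and -0.93 without members rich in macrophage or adipocyte markers, also added after seeing the data. Among MMS ratios of the Tnmd over the Dkk2 side, H19 was -0.014 with 3 UMIs per 10000, -0.60 in the first draw and -0.28 in the second. Uts2r was -0.058 in the second draw and -2.19 in the third, and Clu was -0.54 in the second. Mdk was -0.19, Col12a1 -0.067 and Plat 0.61 in the third draw. The cause of these changes was not tested. Of 360 values of the genes named between the libraries under these alternatives, 326 stayed within the counting interval, 34 moved beyond it and none changed sign. Of 440 values of members over the other gated fibroblasts, 326 stayed, 114 moved and none changed sign, and of 352 values of the sides 273 stayed, 70 moved and 9 changed sign. No paired analysis was possible because each group has 1 library.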
